A study of Mus musculus with 2 samples.

Results

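Of the microRNA genes at imprinted loci outside the Dlk1-Dio3 region, Mir335 of the Mest locus was the abundant gene in mouse gastrocnemius, at 2479.5 ± 9.18 counts per 1000000 assigned microRNA counts (CPM; mean ± SD, n = 2). Mir483 of the Igf2 locus followed at 151 ± 25.7 CPM. Mir675 of the H19 locus and Mir298 and Mir296 of the Gnas locus were present at traces of 10.5 ± 3.80, 6.41 ± 4.63 and 3.08 ± 4.36 CPM. These 5 genes were chosen by locus, from their GENCODE M21 symbols, among 2202 microRNA genes counted, a rule that uses position and no measured value, although earlier results of these data were known when it was set. All 5 were found in both tables by their Ensembl identifiers.

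The study sequenced RNA inserts shorter than 30 nt from gastrocnemius, the large calf muscle, of male mice aged 2 months. The strain was B6CASTF1/J, whose parents are C57BL/6J and the wild-derived CAST/EiJ, and the labels name no treatment and no engineered allele. There is a single group of 2 libraries, biological replicates 2 and 1, and the labels number the source males differently while giving both the same donor record. If the males were not separate animals, the SDs below measure technical spread alone. The binomial p-values below set the libraries against counting error in either case. With no second condition, the data answer how abundant the reads of each gene were and how far the libraries differed. How reads of different microRNAs relate to numbers of molecules was not measured, so folds between genes are folds of reads. Each value is a count of reads on the strand of the gene that matched a single place. The tables do not separate parental alleles, so imprinting itself was not measured.

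An imprinted gene is transcribed mainly from the copy inherited from a particular parent. In the mouse, Mest and Igf2 are expressed from the paternal copy and H19 from the maternal copy, and the last 2 share a control region upstream of H19. At the Gnas locus the antisense transcript Nespas is paternally expressed. Igf2 encodes a growth factor of fetal and regenerating muscle, and H19 is a long noncoding RNA that persists in adult mouse skeletal muscle when most other tissues have silenced it. A microRNA that lies inside such a transcript can be cut from it as a hairpin, whose 5p or 3p arm then guides silencing through its seed, bases 2 to 8.

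The mature sequences are shown because they show whether the genes share a seed and whether their reads can be told from those of other genes. They are RefSeq sequences on GRCm38.p6, written 5′ to 3′ with the seed in capitals.
mmu-miR-335-5p: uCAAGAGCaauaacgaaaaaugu
mmu-miR-335-3p: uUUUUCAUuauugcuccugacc
mmu-miR-483-5p: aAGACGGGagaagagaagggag
mmu-miR-483-3p: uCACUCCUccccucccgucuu
mmu-miR-675-5p: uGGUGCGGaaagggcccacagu
mmu-miR-675-3p: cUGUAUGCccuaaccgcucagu
mmu-miR-298-5p: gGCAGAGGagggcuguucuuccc
mmu-miR-298-3p: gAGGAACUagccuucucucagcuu
mmu-miR-296-5p: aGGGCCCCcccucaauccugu
mmu-miR-296-3p: gAGGGUUGgguggaggcucucc

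The 10 mature sequences held 10 different seeds, so no pair of these genes shared a seed. Among 1679 RefSeq mature microRNAs of the mouse, no other gene had any of these seeds. The longest run shared between hairpins of 2 of the 5 genes was 8 bases, between Mir483 and Mir298. Against all other microRNA genes the longest shared runs were 14 bases for Mir335, 13 for Mir483, 12 for Mir296 and for Mir298, and 11 for Mir675. None of the 5 therefore had 20 or more bases in common with a microRNA gene elsewhere, whereas 49.4% of all 2202 genes did, as did 24.8% of the 303 genes at 2 CPM or more in both libraries. In GENCODE transcripts of 55450 genes, no whole mature sequence was found outside its own hairpin, except those of miR-675, which lie in H19. Copies elsewhere in the genome were not searched.

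The Mir335 hairpin is printed whole because this gene held most of the counts, with its 5p and 3p arms in capitals. It is 98 bases long, and the tables count reads of both arms together, so the arms cannot be told apart in any value here.
Mir335: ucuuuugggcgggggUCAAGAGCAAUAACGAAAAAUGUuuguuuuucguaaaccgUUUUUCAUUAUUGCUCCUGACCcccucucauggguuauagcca
The hairpins ran from 73 bases in Mir483 to 98 in Mir335. Mir335 had the lowest content of G and C of the 5, at 42.9%, followed by Mir298 at 53.7%, Mir483 at 58.9%, Mir675 at 63.1% and Mir296 at 63.3%. Over the 303 genes at 2 CPM or more in both libraries, 10% had under 39.5% and 10% had over 61.9%. The predicted minimum free energy of folding was -44.3 kcal/mol for Mir335, -33.8 for Mir483, -56.0 for Mir675, -42.7 for Mir298 and -43.2 for Mir296.

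**Figure D1:**
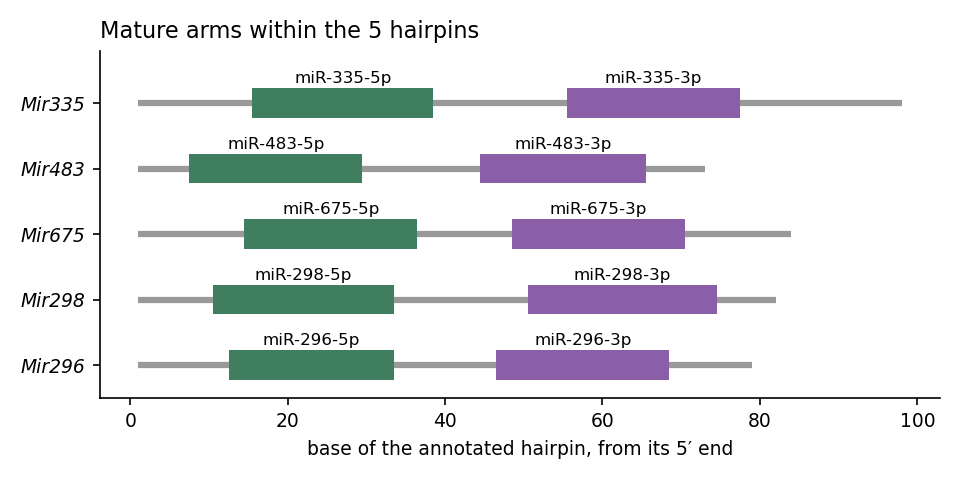
Position of the mature 5p arm (green) and 3p arm (purple) in the annotated hairpin of each gene, in bases from the hairpin's 5′ end; the grey line is the whole hairpin. Both arms are annotated in all 5 hairpins, which are 73 to 98 bases long.

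Each gene was placed on mm10 with the GENCODE M21 annotation. Mir335 (ENSMUSG00000065501.1) lies at chr6:30741299-30741396 on the plus strand. It is in an intron of Mest in all 7 transcripts that span it, the first, the second or the third intron depending on the transcript. Mir483 (ENSMUSG00000070140.1) lies at chr7:142654924-142654996 on the minus strand, in an intron of Igf2 in all 7 transcripts that span it. It also lies in an intron of the overlapping gene Gm49394 on the same strand. Mir675 (ENSMUSG00000076275.1) lies at chr7:142577064-142577147 on the minus strand, 77776 bases from Mir483. Of 4 spanning H19 transcripts it is exonic in 3 and intronic in 1.

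Mir298 (ENSMUSG00000065410.1) at chr2:174267504-174267585 and Mir296 (ENSMUSG00000065521.1) at chr2:174267047-174267125 lie on the minus strand, 378 bases apart. Neither overlaps another annotated gene. Both lie downstream of the annotated end of Nespas, Mir298 by 13651 bases and Mir296 by 14111 bases, and upstream of Gnas. The only other counted microRNA gene within 100 kb of any of the 5 was Gm27591, on the opposite strand 19051 bases from Mir296, with 0 counts in both libraries. For reads that match a single place, a count of 0 was given a limit of 3 counts, which is 1.32 CPM in replicate 2 and 4.70 CPM in replicate 1.

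The libraries differed in depth, with 2272132 counts over microRNA genes in replicate 2 and 638779 in replicate 1, a ratio of 3.56. A single count was thus worth 0.440 CPM in replicate 2 and 1.57 CPM in replicate 1, and values of replicate 2 carry less counting error. Of all reads, 74.4% in replicate 2 and 75.2% in replicate 1 matched several places and are in no gene's count. By reads that match a single place, the 9 listed microRNA genes of skeletal muscle were all at 2 CPM or more in both libraries. Mir206 led them, and their sum was 52158 CPM in replicate 2 and 22884 CPM in replicate 1. Reads that match several gene copies are not in these values, so the lead of Mir206 is no ranking of the muscle microRNAs. Mir206 alone gave 48078 CPM in replicate 2 and 20325 CPM in replicate 1, while the median log2 ratio of the 9 genes was 0.04. Mir126a of endothelium had 129798 and 81286 CPM there, and the smooth muscle pair of Mir143 and Mir145a summed to 81451 and 123068 CPM. The erythroid pair of Mir451a and Mir144 summed to 4688 and 6176 CPM, and the leukocyte genes Mir142, Mir150 and Mir223 to 1576 and 1478 CPM. Mir122 of liver had 29.9 and 15.7 CPM, and Mir375 of pancreatic islet had 5.72 and 3.13 CPM. MicroRNAs of tissues other than muscle thus reached the range of Mir675, Mir298 and Mir296. Mir122 lay above all of these genes in both libraries. Mir375 lay below Mir675 in both libraries and below Mir298 and Mir296 in replicate 2. In replicate 1, Mir375 equalled Mir298 and exceeded Mir296. The part of the marker differences between the libraries in the values of the 5 imprinted genes was not tested. In bulk tissue, fewer cells of a type and less RNA per cell cannot be told apart.

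Mir335, the microRNA within Mest, had 5619 counts in replicate 2 and 1588 in replicate 1. These are 2473 CPM in replicate 2, with an exact 95% Clopper-Pearson interval of 2409 to 2538, and 2486 CPM in replicate 1, with an interval of 2365 to 2611. The libraries lay inside each other's intervals. Such bounds, and the limits for a count of 0, hold counting error alone, since PCR copies cannot be told from separate molecules without molecular identifiers. Mir335 ranked 37th of 2202 genes in replicate 2 and 39th in replicate 1, and it held 0.248% ± 0.000918 of all assigned counts (SD, n = 2). The genes nearest to it in level over the 2 libraries were Mir130a, with 2749 and 2752 CPM in replicates 2 and 1, and Mir28a, with 2819 and 2934 CPM.

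Mir483, the microRNA within Igf2, had 385 counts in replicate 2 and 85 in replicate 1. Its level was 169 CPM in replicate 2 (95% interval 153 to 187) and 133 CPM in replicate 1 (106 to 165). The intervals overlapped, with the deeper library higher. The gene ranked 122nd in replicate 2 and 132nd in replicate 1. Nearest in level were Mir154, of the Dlk1-Dio3 region, with 206 and 147 CPM in replicates 2 and 1, and Mir203, a microRNA of epidermis, with 174 and 169 CPM.

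Mir675, cut from H19 itself and reported in mouse myoblasts to favour muscle differentiation, had 30 counts in replicate 2 and 5 in replicate 1. These are 13.2 CPM in replicate 2 (95% interval 8.91 to 18.8) and 7.83 CPM in replicate 1 (2.54 to 18.3). The interval of replicate 1 held that of replicate 2 nearly whole. Mir205 (27 counts in replicate 2 and 5 in replicate 1) and Mir196a-1 (25 and 4) were nearest in level. Mir483 and Mir675 share a chromosome region and a strand, and Mir483 had 12.8 times the counts of Mir675 in replicate 2 (95% interval 8.84 to 19.3) and 17.0 times in replicate 1 (7.01 to 53.7). The tables hold no counts for H19, Igf2 or Mest transcripts, so a level per host transcript was not computed.

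Mir298 and Mir296, the neighbours at the Gnas locus, were at the edge of detection. Mir298 had 22 counts in replicate 2, or 9.68 CPM (95% interval 6.07 to 14.7), and 2 counts in replicate 1, or 3.13 CPM (0.379 to 11.3). Mir296, studied in human endothelium for its part in vessel growth, had 14 counts in replicate 2, or 6.16 CPM (3.37 to 10.3). It had 0 counts in replicate 1 (0 to 5.77 CPM), where the limit of 3 counts is 4.70 CPM. At the rates of replicate 2, replicate 1 would have held 6.19 counts of Mir298 and 3.94 of Mir296. Within replicate 2 the ratio of Mir298 to Mir296 counts was 1.57 (95% interval 0.769 to 3.32), an interval that includes equal counts. Nearest in level to Mir298 were Mir3074-1 (23 counts in replicate 2 and 2 in replicate 1) and Mir1938 (21 and 2). No nearest genes were sought for Mir296, which did not reach 2 CPM in both libraries.

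**Figure D2:**
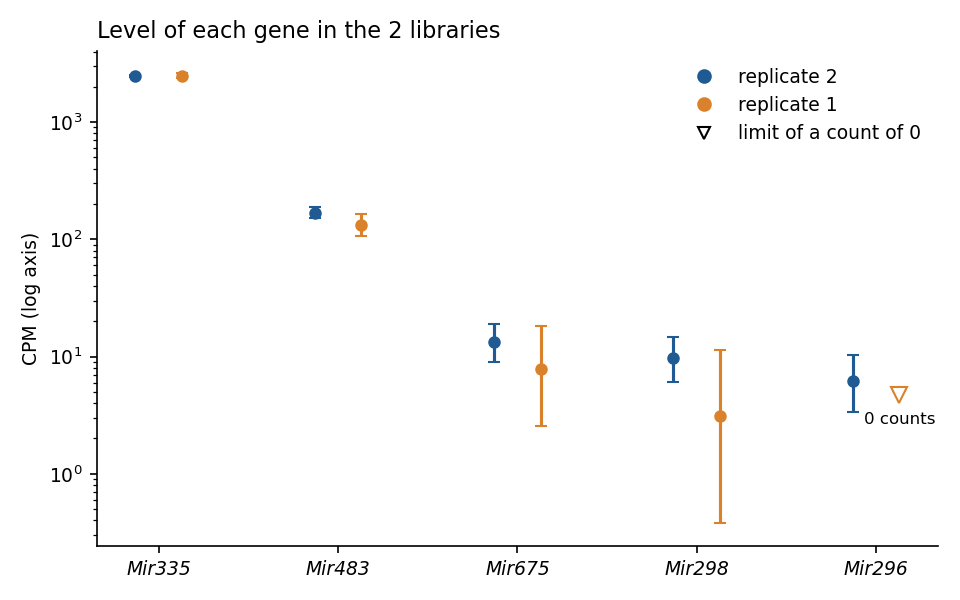
Level of each gene in CPM on a log axis, replicate 2 (blue) left of replicate 1 (orange). Bars are exact 95% Clopper-Pearson intervals of counting error. The open triangle marks 4.70 CPM, the limit of 3 counts set for a count of 0 in replicate 1, and is not the end of such an interval. Mir335 and Mir483 stand apart from the other 3 genes, whose intervals overlap.

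The order of mean levels was Mir335, Mir483, Mir675, Mir298, Mir296. Mir335 was 16.4 times Mir483 in mean CPM, and its lower library, at 2473 CPM, was above the higher library of Mir483, at 169 CPM. Mir483 was 14.4 times Mir675, and the libraries of these genes did not overlap either, with 133 CPM as the lower value of Mir483 and 13.2 CPM as the higher value of Mir675. Mir675 and Mir298 were not ordered beyond their spread, with 7.83 to 13.2 CPM for Mir675 and 3.13 to 9.68 CPM for Mir298. The same held for Mir298 against Mir296, whose values ran from 0 to 6.16 CPM. Within each library these genes kept the order Mir675, Mir298, Mir296, but on few counts, and their 95% intervals of counting error overlapped. Per annotated length the order was the same, with mean levels of 2530.1 CPM per 100 bases for Mir335, 207 for Mir483, 12.5 for Mir675, 7.81 for Mir298 and 3.90 for Mir296.

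**Figure D3:**
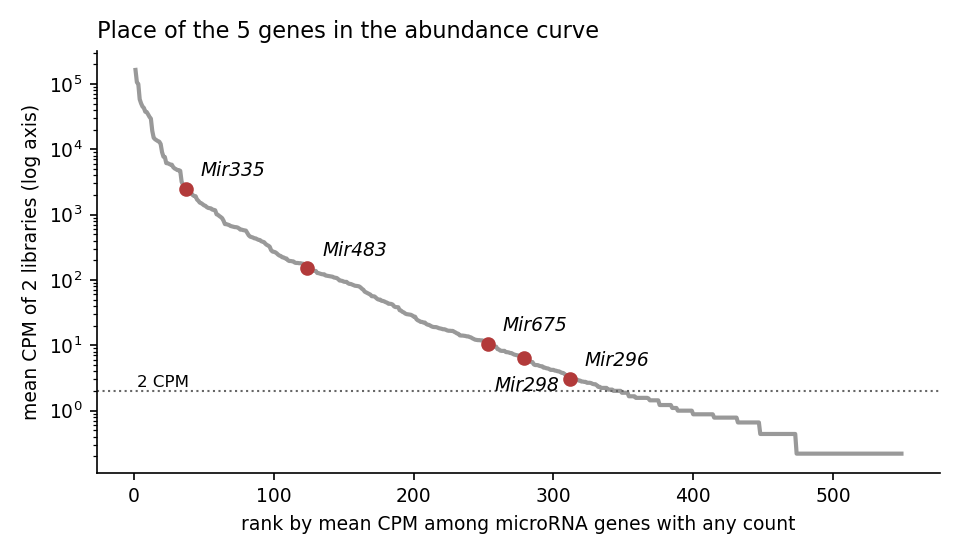
Mean CPM of each microRNA gene with any count (grey line, log axis) against its rank, with the 5 imprinted genes as red points and the 2 CPM floor as a dotted line. Mir335 lies at rank 37 and Mir483 at rank 124, while Mir675, Mir298 and Mir296 lie at ranks 253, 279 and 312.

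Together the 5 genes held 6070 counts in replicate 2 and 1680 in replicate 1. Their sum was 2671 CPM in replicate 2 and 2630.0 CPM in replicate 1 (2651 ± 29.3 CPM, SD, n = 2), or 0.265% of assigned counts. Mir335 gave 92.6% of that sum in replicate 2 (95% interval 91.9 to 93.2%) and 94.5% in replicate 1 (93.3 to 95.6%). Mir483 gave 6.34% in replicate 2 and 5.06% in replicate 1. Without Mir335 the other 4 genes had a sum of 198 CPM in replicate 2 and 144 CPM in replicate 1 (171 ± 38.5 CPM). By comparison, the 58 listed microRNA genes of the imprinted Dlk1-Dio3 region, 44 of them at 2 CPM or more in both libraries, had a sum of 21297 CPM in replicate 2 and 17685 CPM in replicate 1. The 119 microRNA genes inside the imprinted gene Sfmbt2, many of them near-identical copies, summed to 249.5 and 193 CPM, with 5 at 2 CPM or more in both. Of these 119, 111 had no count in either library, and reads that match several copies are in no gene's count, so their sum is no measure of what Sfmbt2 yields.

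The libraries were compared gene by gene, for all genes with at least 10 counts over both, with a two-sided exact binomial test given the library totals, and p-values were adjusted by Benjamini-Hochberg over all of them. This test sets 2 libraries against counting error. It is no test of conditions or of the spread between mice. Of the 5 imprinted genes, all were tested and 0 passed an adjusted p of 0.05, against 40.5% of the 311 tested genes. At an unadjusted p under 0.05, 1 of the 5 was found, against 142 of the 311. The exact test of edgeR with a common dispersion called 0 of the 5 and 2 of the 311, and at an unadjusted p under 0.05 it found 0 of the 5 and 20 of the 311. That dispersion was estimated from the same 2 libraries as a single group, so the difference under test also counted as noise. Few genes can pass such a test, and its 0 of the 5 is no result about these genes. Apart from Mir335 and Mir483 the genes had few counts, and of the 86 tested genes with 50 counts or fewer, 9 passed.

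Mir335 differed little between the libraries, with a ratio of replicate 2 to replicate 1 of 0.995 and a 95% interval of 0.941 to 1.05 (exact binomial test, adjusted p = 0.955). Of the 59 genes with a mean of 1000 CPM or more, 48 passed the test. The median absolute log2 ratio over all 59 was 0.23. Mir335 had an absolute log2 ratio of 0.01, and 3 of these 59 genes had a smaller one. For Mir483 the ratio was 1.27 (1.00 to 1.63; exact binomial test, p = 0.0447, adjusted p = 0.101). For Mir675 it was 1.69 (0.648 to 5.57; exact binomial test, adjusted p = 0.616), and for Mir298 it was 3.09 (0.760 to 27.1; exact binomial test, adjusted p = 0.257). These intervals are wide, so the missed threshold does not show that the libraries were alike in these genes. Mir296 was at 0 in replicate 1, so only the lower end of its interval exists, and at 0.933 it did not exclude equal levels (exact binomial test, adjusted p = 0.108). Its level in replicate 2 was 1.31 times the level of the 3 counts set as the limit in replicate 1, which is no lower bound of the ratio.

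With 0.5 counts added to each library, 4 of the 5 genes had a positive log2 ratio and Mir335 had -0.01. The median log2 ratio was 0.64 over the 5 and 0.39 with Mir296 set against the 3 counts, against 0.04 over all 311 tested genes. On the same scale 2 of the 5, Mir298 and Mir296, were 2-fold or more apart, against 15.8% of all tested genes and 29 of the 86 with 50 counts or fewer. That count depends on the prior. With 2 counts added to each library the log2 ratio of Mir298 was 0.75, under 2-fold, and that of Mir296 is set by the added counts.

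**Figure D4:**
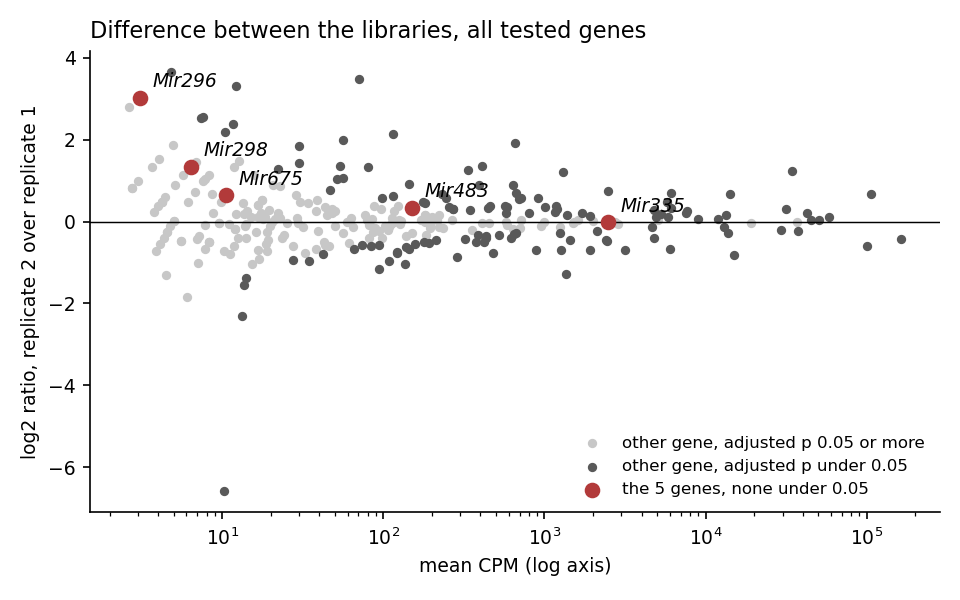
Log2 ratio of replicate 2 over replicate 1, with 0.5 counts added to each library, against mean CPM on a log axis for the 311 tested genes; dark grey points passed an adjusted p of 0.05, light grey points did not, and red points are the 5 imprinted genes. The red points are near 0 at the abundant end (Mir335) and reach 3.03 for Mir296, which had 0 counts in replicate 1.

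Reads on the strand opposite to the 5 genes were nearly absent. Mir335 had 2 such counts in replicate 2 and 0 in replicate 1, and Mir675 had 3 in replicate 2 and 0 in replicate 1. Mir483, Mir298 and Mir296 had 0 in both libraries. No count exceeded the 3 that a count of 0 allows. None of the 5 overlaps another counted microRNA gene, and with the strand ignored Mir335 had 5621 counts in replicate 2 and 1588 in replicate 1, and Mir675 had 33 and 5.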

How the data were processed

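MicroRNA sequencing of mouse gastrocnemius gave 1 table per library. The authors deposited raw counts per microRNA gene on mm10 with GENCODE M21, per the texts that accompany the tables. Which aligner and counter made them is not given in the sources used here. The tables have no column names. From the values, the second count column was read as the strand of the gene, since it held the larger total over genes. Rows that name no gene (unmapped 6.93% and 5.97%, no feature 2.48% and 1.62% of reads in replicates 2 and 1) stayed out of library totals. Whether CAST alleles lowered the share of matched reads was not analysed here.

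CPM is the count over the library's total over genes, times 1000000. Ratios are replicate 2 over replicate 1. The quasi-likelihood test needs replicates in each arm, so an exact binomial test was used. Its step was tested on simulated counts that held counting error alone, which does not gauge calls in libraries that differ by more. Nearest genes are by Euclidean distance of log2(CPM + 1) over 2 libraries. Named genes are the 5, the 2 nearest in level to each gene detected at 2 CPM in both libraries, neighbours within 100 kb, detected genes with a shared seed, and markers. The members and lists were chosen with earlier results of these data known. Alternatives were TMM and DESeq2 scaling, the unstranded column, other totals, floors, priors and count minima, edgeR's exact test, and each library left out. All 5 genes matched RefSeq hairpins. Software was Python 3.11.15, pandas 2.3.3, numpy 2.4.6, scipy 1.17.1, matplotlib 3.10.9, R 4.3.3, edgeR 4.0.16, DESeq2 1.42.0 and RNAfold 2.7.2.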

Additional observations from a re-analysis of the deposited data

How the results depend on the processing

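The summed level of the 5 genes was 2651 CPM, 2651 with TMM and 2646 with DESeq2 scaling, and 2630.0 to 2671 CPM with either library left out. It became 3787 CPM when strand was ignored, since the total over genes is then smaller, 3171 CPM with the most abundant gene left out of the total, and 442 per 1000000 of all reads. The count of genes at the floor in both libraries was 4 of 5 at 2 CPM and 2 at 10 CPM, and 4 to 5 with either library left out. The count of the 5 genes called between the libraries was 0 under each alternative run, with 2 of the 5 tested at the minimum of 50 counts and all 5 otherwise, while the count over all tested genes was 126, and 2 with edgeR's exact test, which counts the spread between the libraries as noise. Mir335's log2 ratio of -0.01 became 0.00 with DESeq2 size factors, and ranged from -0.07 to 0.00. The other log2 ratios kept their sign, with ranges of 0.28 to 0.35 for Mir483, 0.36 to 0.78 for Mir675, 0.75 to 1.35 for Mir298 and 1.17 to 3.04 for Mir296, where the prior count moves the value. Adjusted p ranged from 0.0802 to 1.00 for Mir483 and from 0.108 to 0.911 for Mir296. Without replicate 2, Mir298 rests on 2 counts and Mir296 on 0. No paired analysis was possible because the series has a single group of 2 libraries. Depth limits Mir675, Mir298 and Mir296, at 5, 2 and 0 counts in replicate 1.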
